A study of Mus musculus with 8 samples.

Results

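The loci described here are 42 genes of the nuclear receptor superfamily, chosen without the HNF4 genes. The data are the chromatin loops that ended at their transcription starts. Loops were taken from the 4 Hi-ChIP loop lists of the series when either of their anchors, the 2 genomic intervals that a loop joins, lay within 2 kb of an annotated start of 1 of the 42 genes. By this rule 31 of the 42 receptor genes had an anchor, and 44 of the 30542 anchors of the series lay at receptor starts. These anchors carried 1189 of the 249200 distinct loops. The rule uses gene family and no measured value, but the family was chosen with earlier results of these data known.

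Hi-ChIP combines proximity ligation of chromatin with immunoprecipitation, so that contacts are read where a chosen protein sits. The proteins were FOXA1 and HNF4G. FOXA1 is a forkhead factor that binds closed chromatin (antibody ab5089). HNF4G is a hepatocyte nuclear factor and itself a member of the nuclear receptor superfamily (antibody HPA005438). Each was profiled in a cell line grown out of a primary tumor of the KPC mouse, a genetic model of pancreatic cancer, and in the isogenic cell line from a matched liver metastasis (liver mets). All 8 samples were untreated mouse pancreatic cancer cells, listed as WT in genotype, grown in DMEM with 10% FBS. Each condition was therefore 1 cell line, and the 4 groups were FOXA1 tumor, FOXA1 liver mets, HNF4G tumor and HNF4G liver mets. Every group had 2 replicates that were represented by 1 joint loop list, so no spread between replicates could be calculated and no test between groups was run. The lists held 104136, 125623, 76323 and 78098 loops in that order, which is the order of all values given in sets of 4 below. Ratios, shares and counts carry exact or Wilson 95% intervals, which cover counting error only. Loops that share an anchor are not independent of each other. The sequencing depth behind the lists was unknown.

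Nuclear receptors are transcription factors with a DNA-binding domain and a pocket for small lipophilic ligands such as retinoids, thyroid hormone, steroids, fatty acids, oxysterols or bile acids. Many bind DNA as heterodimers with a retinoid X receptor (RXR) at paired copies of the half-site AGGTCA, and orphan members work without a known ligand. In the pancreas and liver they are best known for control of lipid, bile acid and retinoid metabolism, and several take part in the circadian clock. A loop at the start of a receptor gene is a contact of that gene and is not a measure of its transcription.

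Sequences are shown for anchors of receptors with many loops or called differences and for distal partners named below, because the immunoprecipitated proteins read short DNA words. The forkhead word TGTTTAC and the HNF4 word CAAAGTCC were searched on both strands of GRCm38, and each match is in capitals with 30 bases on either side. GTAAACA and GGACTTTG are the same words read on the other strand. All windows are the plus strand from 5′ to 3′, lie outside annotated exons and were picked after the search. Each label counts the words in its window and not in the whole anchor. Labels of partner anchors do not name every receptor joined to them. The distal anchor on chromosome 11 was also joined to Thra in both FOXA1 lists, and the Rapgefl1 anchor to Rara and Thra in some lists. The 44 receptor anchors held 25 forkhead words and 12 HNF4 words in all.
Rara first anchor, 1 HNF4 word, chr11:98935258-98935325: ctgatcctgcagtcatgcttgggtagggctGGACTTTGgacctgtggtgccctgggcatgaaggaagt
Rara second anchor, 1 forkhead word, chr11:98948839-98948905: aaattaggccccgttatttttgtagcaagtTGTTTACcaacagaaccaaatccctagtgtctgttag
Nr1d1 anchor, 1 forkhead word, chr11:98771049-98771115: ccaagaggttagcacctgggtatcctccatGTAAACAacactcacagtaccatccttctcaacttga
Distal anchor joined to Rara and Nr1d1, 2 HNF4 words and 1 forkhead word, chr11:99106128-99106338: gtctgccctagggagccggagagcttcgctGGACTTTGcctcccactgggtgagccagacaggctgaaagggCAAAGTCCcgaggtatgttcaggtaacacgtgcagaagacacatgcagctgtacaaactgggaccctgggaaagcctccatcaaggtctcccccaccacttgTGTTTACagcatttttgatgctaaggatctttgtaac
Rapgefl1 anchor joined to Nr1d1, both words 6 bases apart, chr11:98835894-98835974: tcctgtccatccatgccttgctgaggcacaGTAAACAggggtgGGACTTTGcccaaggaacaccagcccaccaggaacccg
Rarg first anchor, 1 HNF4 word, chr15:102247349-102247416: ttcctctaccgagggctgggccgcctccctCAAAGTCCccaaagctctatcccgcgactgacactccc
Ppard last anchor, 1 HNF4 word, chr17:28290492-28290559: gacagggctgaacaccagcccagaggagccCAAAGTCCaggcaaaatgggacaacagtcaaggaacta
Nr4a1 first anchor, 1 HNF4 word, chr15:101253126-101253193: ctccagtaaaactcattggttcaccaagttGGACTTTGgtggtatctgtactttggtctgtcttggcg
Nr0b2 anchor, 1 HNF4 word, chr4:133552772-133552839: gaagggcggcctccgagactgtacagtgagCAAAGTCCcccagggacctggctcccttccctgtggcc
Distal anchor joined to Pparg, both words 162 bases apart, chr6:115284641-115284877: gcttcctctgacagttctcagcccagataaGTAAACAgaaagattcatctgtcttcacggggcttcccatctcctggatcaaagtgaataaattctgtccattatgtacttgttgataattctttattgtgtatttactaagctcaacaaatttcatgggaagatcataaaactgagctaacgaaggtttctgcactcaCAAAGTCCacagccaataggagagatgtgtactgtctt
Distal anchor joined to Nr2c2, both words 36 bases apart, chr6:91665376-91665486: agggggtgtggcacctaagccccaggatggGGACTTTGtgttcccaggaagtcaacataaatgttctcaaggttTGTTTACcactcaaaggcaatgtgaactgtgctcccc

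Receptor starts carried looped anchors more often than coding genes at large, but their loop numbers were like those of other looped genes. The 31 of 42 receptors made up 73.8% (58.9 to 84.7), beside 49.2% of the 21924 protein-coding genes. Genes were not matched for their number of annotated starts, any of which could meet the rule. In single lists 28, 27, 27 and 28 receptors had a loop, and 24 had a loop in every list. Summed over the 4 lists, the 31 receptors had a median of 24 loops, beside 23 for the 10786 coding genes with an anchor. The family's loops were concentrated on few genes. Rara alone held 21.7% of the summed 1987 loops, and the 7 receptors with the most loops held 72.1%.

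The 4 lists held 500, 593, 451 and 401 receptor loops. These were 0.48% (0.44 to 0.524) of the FOXA1 tumor list, 0.472% (0.436 to 0.511) of FOXA1 liver mets, 0.591% (0.539 to 0.648) of HNF4G tumor and 0.513% (0.466 to 0.566) of HNF4G liver mets. The HNF4G tumor list gave receptors the highest share, and its interval did not overlap that of either FOXA1 list. The number of loops of a gene went with the width of its anchors. Over the 44 receptor anchors, the rank correlation of width with loops was 0.555, and it was 0.377 over all 13819 promoter anchors. These points share lists and anchors, so the correlations are descriptions. Receptor anchors were 2.79 kb wide in the median, beside 2.48 kb for all promoter anchors.

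**Figure D1:**
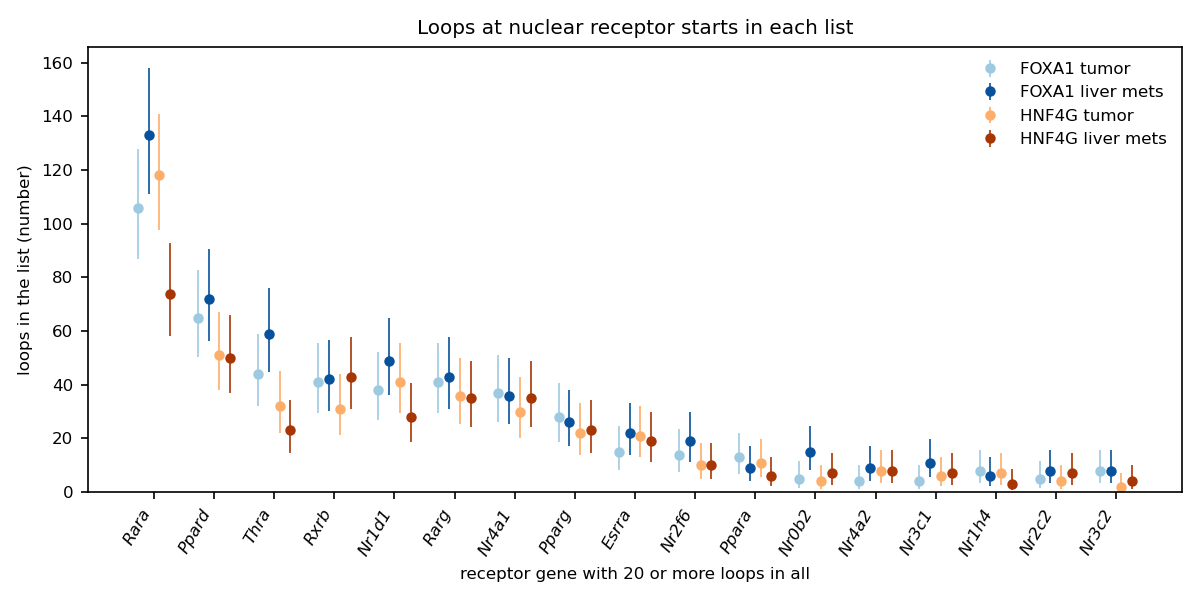
Loops in each list (y axis, number) for the 17 receptors with 20 or more loops summed over the lists (x axis), with exact Poisson 95% intervals as bars. Rara was the highest in every list, from 74 loops in HNF4G liver mets to 133 in FOXA1 liver mets.

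Among receptors for retinoids, thyroid hormone and vitamin D, 5 of 6 genes had an anchor, and together they held 186, 232, 186 and 133 loops. Rara, the retinoic acid receptor alpha gene (chromosome 11, 98927818 to 98974942), held 106 loops in FOXA1 tumor, 133 in FOXA1 liver mets, 118 in HNF4G tumor and 74 in HNF4G liver mets. The HNF4G liver mets list was the lowest of the 4. Its 3 anchors held 22, 40, 39 and 24 loops at the first, 53, 57, 42 and 34 at the second and 34, 39, 40 and 19 at the third. All 3 anchors had fewer loops in HNF4G liver mets than in HNF4G tumor. The second anchor also holds the start of the small gene Gm22061.

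Thra, the thyroid hormone receptor alpha gene (chromosome 11, 98740638 to 98769006), held 44, 59, 32 and 23 loops. In raw number FOXA1 was above HNF4G in both cell lines. Rarg, the retinoic acid receptor gamma gene (chromosome 15, 102234938 to 102257517), held 41, 43, 36 and 35 loops. Rarb and Thrb, the beta genes of both pairs, had 7 and 2 loops in all. Vdr, the vitamin D receptor gene, had no anchor, and the nearest was 6.32 kb from a start.

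Of the RXR genes, which encode the shared heterodimer partners, Rxrb stood far above the others. Rxrb (chromosome 17, 34031812 to 34038399) held 41, 42, 31 and 43 loops. Both of its anchors also hold starts of a neighbor, Slc39a7 at the first and Col11a2 at the second, so its loops cannot be told apart from theirs. Rxra held 5, 4, 1 and 1 loops, and the anchor nearest to Rxrg was 204 kb away.

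In the group of lipid, bile acid and xenobiotic sensors, 7 of 8 genes had an anchor, with 124, 120, 99 and 94 loops together. Ppard, the fatty acid sensor PPAR delta (chromosome 17, 28232700 to 28301474), held 65, 72, 51 and 50 loops over 3 anchors. Pparg, the adipogenic PPAR gamma (chromosome 6, 115360951 to 115490399), held 28, 26, 22 and 23 loops at 1 anchor. Ppara, the PPAR of fatty acid oxidation, held 13, 9, 11 and 6 loops. Both FOXA1 lists, which are the longer ones, were above both HNF4G lists in raw number for Ppard and Pparg, and for Ppara the tumor list was above the liver mets list with each factor. Per kb of anchor the order changed. Pparg then had the most loops of the 17 receptors with 20 or more loops, 35.7 per kb summed over the lists, beside 25.0 for Ppara, 16.3 for Ppard and 14.8 for Rara.

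The oxysterol receptor genes Nr1h2 and Nr1h3 held 18 and 16 loops in all, and Nr1h4, the bile acid receptor FXR, held 8, 6, 7 and 3. The anchor counted for Nr1h2 lay 1.62 kb from its start and holds a start of Pold1. The xenobiotic receptor gene Nr1i2 had 3 loops, and Nr1i3 had no anchor, with the nearest at 5.94 kb.

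All 4 clock repressors and ROR genes had an anchor. Nr1d1, the clock repressor REV-ERB alpha (chromosome 11, 98767932 to 98775333), held 38, 49, 41 and 28 loops at 1 anchor of 16.9 kb, the widest at any receptor. Per kb this was 9.23 loops, below 10 of the 17 receptors with 20 or more loops. Nr1d2, Rora and Rorb held 5, 1 and 6 loops in all.

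Of the 5 steroid receptor genes only Nr3c1 and Nr3c2 had an anchor. Nr3c1, the glucocorticoid receptor, held 4, 11, 6 and 7 loops. Nr3c2, the mineralocorticoid receptor, held 8, 8, 2 and 4. The nearest anchors to the estrogen receptor genes Esr1 and Esr2 were 4.66 and 140 kb away, and that to Pgr, the progesterone receptor gene, was 225 kb away. Among the estrogen-related orphans, Esrra, a regulator of mitochondrial genes (chromosome 19, 6910977 to 6921813), held 15, 22, 21 and 19 loops. For Esrrb and Esrrg the nearest anchors were 24.2 and 379 kb away.

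The NR2 orphans had an anchor at 5 of 6 genes. Nr2f6 (chromosome 8, 71374123 to 71381960) held 14, 19, 10 and 10 loops, Nr2c2 5, 8, 4 and 7, and Nr2f2 4, 5, 5 and 5. Nr2c1 and Nr2f1 had 6 and 2 in all, and Nr2e1 had none, with the nearest at 65.4 kb. In the immediate-early NR4A family, Nr4a1 (chromosome 15, 101254269 to 101274795) held 37, 36, 30 and 35 loops and Nr4a2 held 4, 9, 8 and 8. Nr4a3 had no anchor, with the nearest at 73.0 kb. Nr0b2, the corepressor SHP of bile acid signaling, held 5, 15, 4 and 7 loops, with FOXA1 liver mets highest. Nr5a1 and Nr6a1, which neighbor each other on chromosome 2, held 18 and 14 in all. Nr5a2, a pancreatic and hepatic regulator also known as LRH-1, had no anchor, with the nearest at 23.4 kb. The 14 receptors below 20 loops had between 1 and 19 in all and at most 7 in a list.

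The first comparison asked how receptor loops differed between the liver mets and tumor lines. For FOXA1, receptors took the same share of the list in both lines, with a liver mets over tumor ratio of 0.983 (0.871 to 1.11), beside 0.983 for all other promoter loops. For HNF4G the ratio was 0.869 (0.758 to 0.996), beside 0.965 for other promoter loops. The interval lay just below 1 and included the value of other promoters. Without Rara, the receptor with the most loops, the HNF4G ratio was 0.949 (0.813 to 1.11). Thra, Nr1d1 and Rara were also left out together, an alternative added after the data were seen. The HNF4G ratio was then 1.02 (0.861 to 1.21), from 270 loops in tumor and 282 in liver mets. Those 3 genes had a ratio of 0.643 (0.505 to 0.814), so leaving them out raises the HNF4G ratio by construction.

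The second comparison set FOXA1 against HNF4G within a cell line. In the tumor line, receptors took a smaller share of the FOXA1 list than of the HNF4G list, with a ratio of 0.813 (0.714 to 0.925), beside 0.95 for other promoter loops. The interval lay below the other promoters. In liver mets the ratio was 0.919 (0.809 to 1.05), beside 0.968. Without the chromosome 11 locus, left out after the data were seen, the tumor ratio was 0.879 (0.746 to 1.04) and the liver mets ratio was 0.8 (0.683 to 0.938). In raw numbers FOXA1 had more receptor loops than HNF4G in both lines, since its lists were longer.

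Single receptors were called when their share of the list differed by 1.5 times or more and both lists summed to 10 loops or more. With 1 list per group a call is a size and not a test. For FOXA1 in liver mets over tumor, 18 receptors could be called. Higher in liver mets were 3 (background 11.4% of 6862 coding genes), and lower were 2 (background 15.2%). The higher ones were Nr3c1 with a ratio of 2.28 (0.675 to 9.82), Nr4a2 with 1.87 (0.521 to 8.29) and Nr0b2 with 2.49 (0.859 to 8.75). The lower ones were Ppara with 0.574 (0.217 to 1.45) and Nr1h4 with 0.622 (0.178 to 2.04). Every interval held 1. The median ratio was 1.0, beside 0.967 for coding genes.

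For HNF4G in liver mets over tumor, 3 of 18 receptors were called higher (background 12.7% of 5425 genes) and 3 lower (background 19.5%). Nr1h2, Nr2c2 and Nr0b2 each had 7 loops against 4, a ratio of 1.71 (0.435 to 7.97). Rara was lower, at 0.613 (0.452 to 0.826), and was the only receptor whose interval left 1 in this comparison. Ppara was at 0.533 (0.162 to 1.57) and Nr1h4 at 0.419 (0.0699 to 1.83), both lower as with FOXA1. Each of these intervals held 1, and Ppara and Nr1h4 had at most 13 loops in a list.

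For FOXA1 over HNF4G in tumor, 1 of 16 receptors was called higher (background 13.5% of 6034 genes) and 4 lower (background 22.0%). Nr3c2 was higher, at 2.93 (0.585 to 28.3). Rara, at 0.658 (0.502 to 0.863), and Esrra, at 0.524 (0.251 to 1.07), were lower, as were Nr3c1 and Nr4a2 on at most 8 loops a list. Only the interval of Rara left 1. In liver mets, 1 of 18 was higher (background 12.9% of 6342 genes) and 4 lower (background 19.4%). Thra was higher, at 1.59 (0.97 to 2.71), and Rxrb lower, at 0.607 (0.387 to 0.951), with an interval that left 1. Nr4a1 was at 0.639 (0.39 to 1.05), and Nr1h2 and Nr2f2 were lower on at most 7 loops a list. These comparisons share lists, so the Rara calls are not separate observations of the HNF4G tumor list. In each comparison the shares of receptors called were close to these backgrounds.

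**Figure D2:**
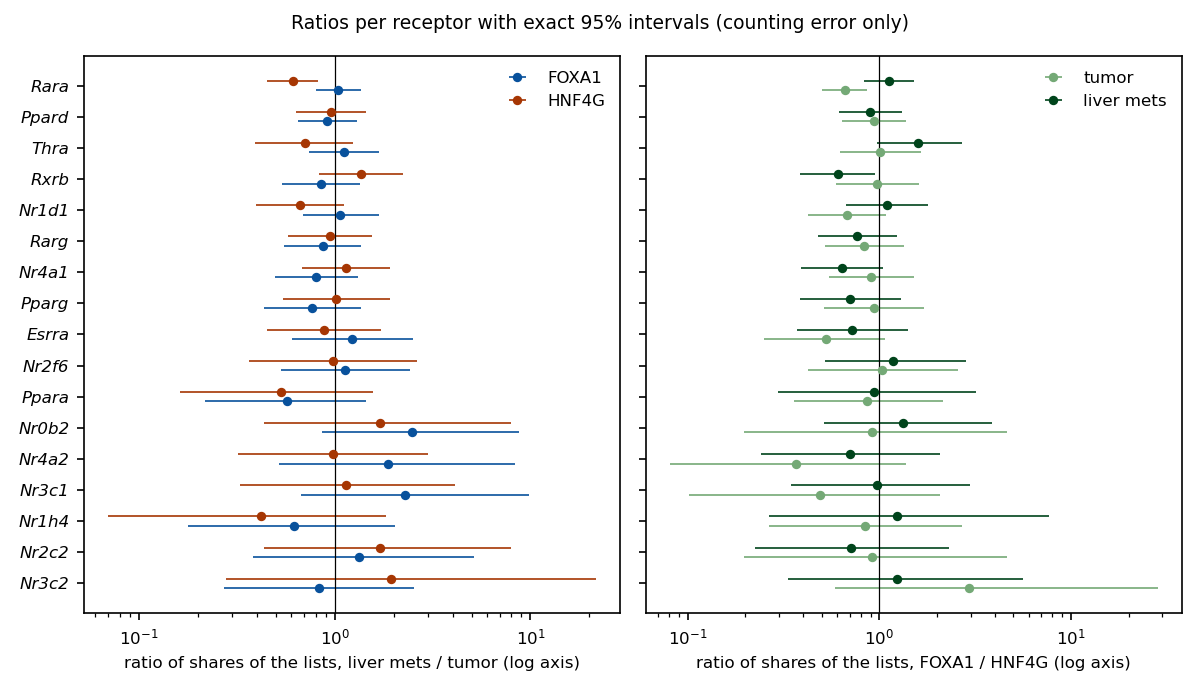
Ratios of shares of the lists on a log axis for the 17 receptors with 20 or more loops, liver mets over tumor on the left and FOXA1 over HNF4G on the right, with exact 95% intervals. Only Rara for HNF4G, Rara in tumor and Rxrb in liver mets have intervals that leave 1.

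The chromosome 11 locus of Thra, Nr1d1 and Rara had 176, 230, 181 and 119 loops, 421 of them distinct. The Thra and Nr1d1 genes overlap at their ends, and Rara begins further on at 98927818, with starts of other genes between. For FOXA1 the liver mets over tumor ratio was 1.08 (0.886 to 1.33), and for HNF4G it was 0.643 (0.505 to 0.814). Loops within 1 Mb that did not end at these receptors had ratios of 0.997 (0.915 to 1.09) and 0.895 (0.807 to 0.993), and those on the rest of the chromosome had 0.987 and 0.92. For HNF4G the ratio was lower at the receptors than around them, with intervals that met at their ends, and no test of the difference was possible. For FOXA1 it was close to 1 in all 3 sets.

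**Figure D3:**
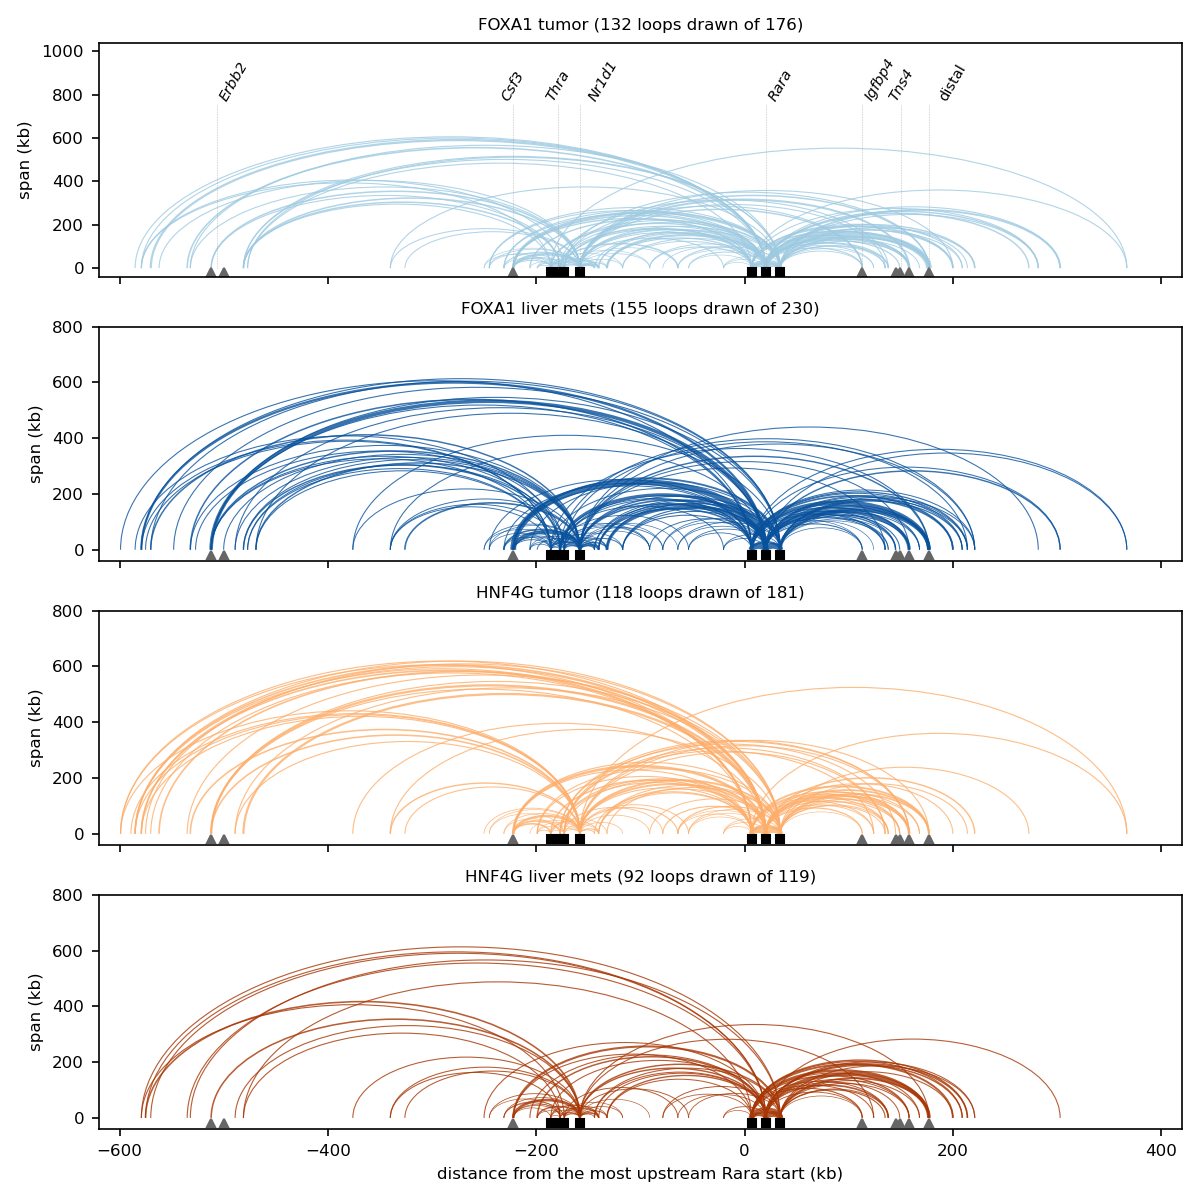
Loops at the Thra, Nr1d1 and Rara starts in each list, drawn as arcs between anchor midpoints against distance from the most upstream Rara start (x axis, kb), with arc height equal to span (y axis, kb) and thicker arcs for higher values. Black squares mark receptor anchors and triangles mark partners, and HNF4G liver mets has the fewest loops at 119.

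The span of a loop is the distance between its anchor midpoints. At Rara, HNF4G had fewer loops in liver mets than in tumor in each span class, and the longest class differed most in number. Under 100 kb Rara had 15, 12, 15 and 10 loops, and from 100 to 500 kb it had 56, 65, 45 and 39. At 500 kb or more it had 35, 56, 58 and 25. The HNF4G liver mets over tumor ratio was 0.652 (0.262 to 1.55) under 100 kb, 0.847 (0.537 to 1.33) from 100 to 500 kb and 0.421 (0.252 to 0.684) for the longest loops, where FOXA1 had 1.33 (0.854 to 2.08). The neighboring receptors had few loops of this length, and their intervals held 1. For HNF4G, Thra had 2 loops in liver mets against 7 in tumor, a ratio of 0.279 (0.0283 to 1.47), and Nr1d1 had 5 against 11, a ratio of 0.444 (0.121 to 1.39). For FOXA1 their ratios were 1.3 (0.461 to 3.96) and 1.29 (0.52 to 3.38). Other promoter loops of this length lay on the same sides of 1 but nearer to it, with 0.855 (0.833 to 0.878) for HNF4G and 1.13 (1.11 to 1.16) for FOXA1. FOXA1 over HNF4G at these spans was 0.442 (0.282 to 0.684) in tumor and 1.39 (0.855 to 2.33) in liver mets, beside 0.966 and 1.28 for other promoters. Loops of this length within 1 Mb that ended at no receptor had ratios of 0.8 (0.669 to 0.956) for HNF4G and 1.19 (1.03 to 1.37) for FOXA1. Over all loops of the lists at this length, HNF4G had 0.884 (0.864 to 0.905) and FOXA1 1.16 (1.14 to 1.18). The median span of Rara loops was 227, 256, 464 and 194 kb.

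**Figure D4:**
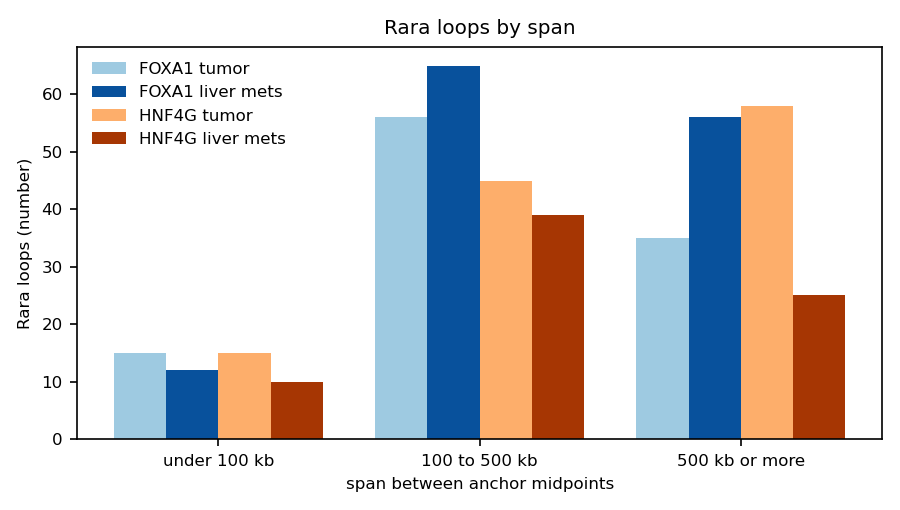
Rara loops (y axis, number) by span between anchor midpoints (x axis) in the 4 lists. At 500 kb or more HNF4G had 58 loops in tumor and 25 in liver mets, and FOXA1 had 35 and 56.

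Ppard also had more long loops in the FOXA1 liver mets list. At 500 kb or more it had 12, 29, 12 and 11 loops, a FOXA1 ratio of 2.0 (0.991 to 4.31), whose interval held 1. Thra had 22 loops of 100 to 500 kb in FOXA1 liver mets and 5 in HNF4G liver mets, a ratio of 2.74 (1.01 to 9.25). Other promoter loops of 100 kb or more had a ratio of 1.12 (1.1 to 1.13) in that comparison. The Ppard and Thra values were picked from many receptors and span classes, so an interval that just leaves 1 carries little weight.

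The median span of receptor loops was 156, 214, 192 and 136 kb, beside 150, 174, 143 and 124 kb for other promoters. In this paragraph other promoter loops are counted once per promoter end and receptor loops once per loop. Loops of 100 kb or more made up 64.0%, 70.2%, 66.7% and 59.9% of receptor loops, beside 60.4%, 63.9%, 59.0% and 55.4%. The Wilson interval of the receptor share lay above the other promoters in FOXA1 liver mets (66.3 to 73.7) and HNF4G tumor (62.3 to 70.9) and held them in the other lists. Without Thra, Nr1d1 and Rara the median spans were 130, 184, 136 and 119 kb, above the other promoters in FOXA1 liver mets alone, and the shares of long loops were 59.3%, 65.3%, 59.6% and 55.3%. Each loop also has an unnamed deposited value of at most 20, whose unit no source states, with long runs of tied values that differ between lists. A value of 2 or more was held by 15.2%, 14.5%, 11.8% and 13.5% of receptor loops, beside 8.36%, 9.54%, 8.34% and 7.97%. At the chromosome 11 locus of Thra, Nr1d1 and Rara the share was 25.6%, 23.9%, 17.7% and 21.8%. Without it, an alternative added after the data were seen, the receptor shares were 9.57% (6.82 to 13.3), 8.54% (6.08 to 11.9), 7.78% (5.14 to 11.6) and 9.93% (6.96 to 14), and each interval held the value of other promoters.

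The partner of a receptor anchor was more often a promoter than not at the 2 kb distance used, but in 45.6% of loops when an anchor had to cover the start and in 44.4% with starts of protein-coding transcripts only. Of the 1189 distinct loops, 645 (54.2%) joined a receptor to a start of another gene, 16 (1.35%) to another receptor, 13 (1.09%) to another anchor of the same receptor and 515 (43.3%) to an anchor with no start. Counted by anchor ends, partners were promoters in 57.6%, 59.5%, 57.5% and 56.7%, beside 55.8%, 54.5%, 59.0% and 57.0% for other promoters. The receptors differed among themselves. Promoter partners made up 81.9% of Rxrb loops, 72.5% of Nr2f6, 69.4% of Esrra and 69.3% of Thra, and 40.4% of Pparg, 25.0% of Nr3c1, 23.1% of Nr4a2 and 8.33% of Nr3c2. The distal partners without a start were 323 anchors, of which 133 were intergenic, 117 intronic and 73 overlapped an exon.

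The 16 receptor-to-receptor loops lay mostly at the chromosome 11 locus, which had 14 of them. Thra was joined to Rara by 6, 5, 4 and 1 loops, and to Nr1d1 by 3 in every list. The Nr1d1 anchor (chr11:98761245-98778128) also covers the end of the Thra gene. Nr1d1 was joined to Rara by 3, 3, 3 and 2. The 4 and 1 Thra to Rara loops of the HNF4G lists are too few to compare. Elsewhere, Nr4a1 was joined to Rarg over 979 kb in FOXA1 tumor (value 1.91) and HNF4G liver mets (value 4.12), and Nr5a1 to Nr6a1 over 212 kb in HNF4G liver mets. The 3 chromosome 11 receptors also shared partners. An anchor with the starts of Csf3, a granulocyte growth factor, and Med24, a Mediator subunit known as a receptor coactivator (chr11:98700467-98711704), was joined to all 3 in every list, as was an anchor with no start at chr11:98785646-98789915. In all, 117 partner anchors were joined to 2 or more receptors, 78 of them on chromosome 11 and 36 on chromosome 15. The same count was not made for other neighboring genes, so this number has no background and is not a result about the family. On chromosome 15, an anchor at Krt18, an epithelial keratin gene (chr15:102021806-102035809), was joined to Rarg in every list and to Nr4a1 in 3.

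Loops with the highest lowest value over the lists were taken for the 10 receptors with the most loops, and those of 9 are given. At Rara this joined its first and second anchors over 13.5 kb, with values of 12.3, 20, 20 and 12.7. Rara was also joined over 157 kb to the distal anchor at chr11:99100839-99109331, the one shown above with 2 HNF4 words and 1 forkhead word, with values of 20, 9.79, 4.56 and 11.8. That anchor is intergenic and was joined to Nr1d1 over 335 kb with values of 3.35, 3.18, 1.91 and 1.92. At Nr1d1 the loop ended at the Csf3 and Med24 anchor, 63.6 kb away, with values of 7.91, 12.2, 6.64 and 7.52. Nr1d1 was also joined to Erbb2, a receptor tyrosine kinase gene, over 354 kb with values of 3.4, 3.15, 3.57 and 3.63. Its loop to Rapgefl1 over 67.1 kb, where both words lie 6 bases apart, was in every list at values of at most 0.559. At Thra the loop ended at Nr1d1, 14.9 kb away, with values of 2.28, 3.33, 0.418 and 1.99.

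At Ppard the loop joined 2 of its own anchors over 37.0 kb, with values of 2.6, 3.69, 2.51 and 1.99. Pparg was joined in every list to the intergenic anchor 77.0 kb away whose sequence is shown above, with values of 0.894, 0.73, 0.171 and 0.904. Rarg was joined to Krt18 over 217 kb with values of 12.2, 11.2, 3.22 and 1.82. Rxrb was joined to the Ring1 and H2-Ke6 anchor over 6.64 kb with values of 2.01, 3.57, 5.34 and 5.0. Esrra was joined to Plcb3 and Ppp1r14b over 53.2 kb with values of 1.96, 1.14, 1.05 and 1.03. The loops of Nr4a1 to Gm35853 and Nr2f6 to Ankle1 had values of at most 2.55.

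Some anchor pairs were found in 1 list of a comparison and not the other, and were picked for that. The second Rara anchor was joined to the Csf3 and Med24 anchor over 242 kb with values of 3.16, 20 and 7.72, and this pair was not listed in HNF4G liver mets. The other 2 Rara anchors were joined to the same partner in every list, over 256 and 229 kb, with values of 5.61 and 1.82 in HNF4G liver mets. The second Rara anchor was joined to Erbb2 over 532 kb in FOXA1 liver mets (11.3) and HNF4G tumor (6.26) only. One Thra anchor was joined to Rara over 197 kb in FOXA1 liver mets (8.73) and HNF4G tumor (1.71), while HNF4G liver mets held another Thra to Rara pair, over 207 kb (1.79). Nr2c2 was joined over 427 kb to a distal anchor, shown above with both words 36 bases apart, in FOXA1 liver mets (1.78) and HNF4G liver mets (3.71) but in neither tumor list. Nr3c2 was joined to Arhgap10 over 617 kb in FOXA1 tumor alone (3.77). Nr1h4 was joined to Uhrf1bp1l over 213 kb in FOXA1 tumor alone (2.97). Most of the others had values below 2 in their list, where long runs of tied values lie.

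Most receptor loops were found in 1 list. Of the 1189 loops, 749 (63.0%) were in 1 list, 221 (18.6%) in 2, 122 (10.3%) in 3 and 97 (8.16%, 6.73 to 9.85) in all 4, beside 65.3%, 19.8%, 9.23% and 5.63% for other promoters. The share in all 4 lists was higher at receptors. Without the chromosome 11 locus, left out after the data were seen, it was 7.16% (5.54 to 9.21), an interval that held the other promoters. Loops in more lists were shorter, with median spans of 539, 180, 98.5 and 56.1 kb in that order. Between lines, FOXA1 shared 240 receptor loops, which were 48.0% of its tumor and 40.5% of its liver mets loops. HNF4G shared 158, or 35.0% and 39.4%. For other promoters these were 40.6% and 34.5% for FOXA1 and 33.7% and 34.6% for HNF4G. Rara had 22 loops of 255 in all 4 lists, Ppard 18 of 135, Nr1d1 17 of 79, Rxrb 10 of 94, Pparg 8 of 47 and Thra 8 of 101. Rarg had 2 of 91. Ppara, Nr0b2, Nr3c1 and Nr2c2 had none, each with 20 to 29 distinct loops.

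**Figure D5:**
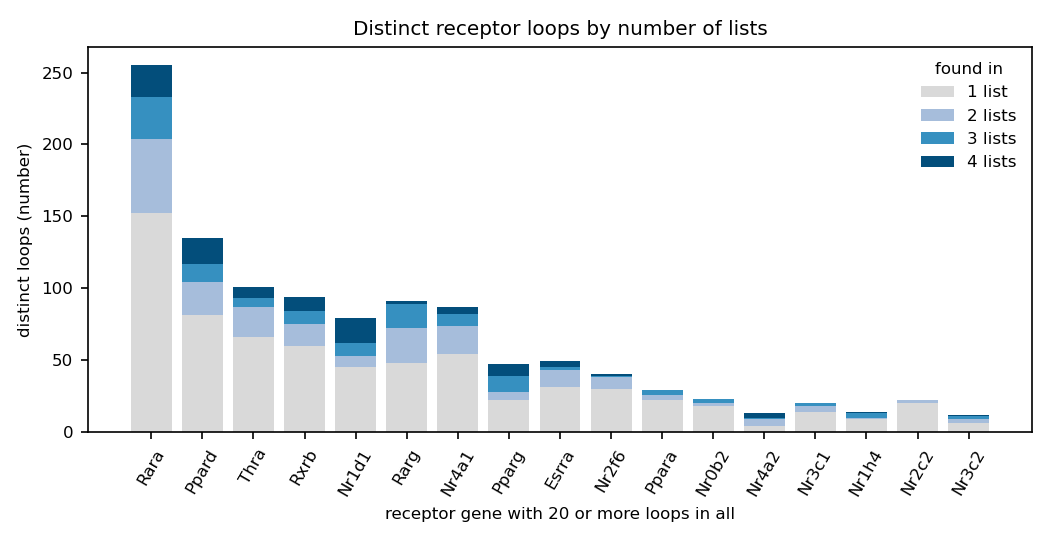
Distinct loops (y axis, number) of the 17 receptors with 20 or more loops (x axis), stacked by the number of lists that hold them. Nr1d1 had 17 of its 79 loops in all 4 lists and Rarg 2 of 91.

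Receptor anchors held the HNF4 word in 11 of 44 (25.0%, 14.6 to 39.4), beside 12.8% of 13819 promoter anchors. They were wider, at 3.96 kb against 2.9 kb on average, and per kb the numbers were 0.0688 and 0.0487. The forkhead word was in 19 (43.2%, 29.7 to 57.8) beside 33.4%, or 0.143 and 0.151 per kb. The half-site AGGTCA was in 37 (84.1%) beside 77.9%, or 0.671 and 0.661 per kb. Per kb the forkhead word and the half-site were thus as frequent as at other promoters. Both words lay within 200 bases at 1 receptor anchor. Of the 323 distal partners, 109 held the forkhead word (33.7%, 28.8 to 39.1), beside 39.3% of all 16723 anchors without a start. Per kb this was 0.16 and 0.205, so the forkhead word was less frequent at the distal partners. The HNF4 word was in 46 (14.2%, 10.8 to 18.5) beside 11.6%, or 0.0583 and 0.0491 per kb. Both lay within 200 bases in 5 distal partners (1.55%, 0.663 to 3.57), beside 0.975%. Rara held 3 forkhead words and 1 HNF4 word at its second anchor, and Nr1d1 1 and 2. In the same order the first Rarg anchor held 2 and 1, the first Nr4a1 anchor 1 and 1, and the second Ppard anchor 2 and 0. In the 59 RefSeq promoters of 39 of the receptor genes (GRCm38.p6, 250 bases before to 50 after a start), the forkhead word was in 2, at Nr2f1 and Rxrb, the HNF4 word in 0 and the half-site in 11. The share among all 32851 promoters was 3.65%, 1.42% and 16.3%. A match is a description of letters and not a bound site.

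Coregulators of the receptors were looped at 22 of 25 genes, beside 49.2% of protein-coding genes, with 269, 294, 228 and 196 loops. Med24 held 60, 60, 50 and 40 of these. Some of the Med24 loops joined it to Thra, Nr1d1 or Rara and are also counted as receptor loops. For FOXA1 in liver mets over tumor, 1 of 15 was higher and 2 lower, against the same backgrounds of 11.4% and 15.2%. For HNF4G, 1 of 14 was higher (background 12.7%; Tbl1xr1, a corepressor subunit, 21 loops against 10) and 6 lower (background 19.5%). The lower ones included the acetyltransferase genes Ep300 (4 against 11) and Crebbp (3 against 8), the corepressor Nrip1 (7 against 13) and the coactivator Ppargc1b (1 against 10). The median ratio was 0.697, beside 0.977 for coding genes. Only the interval of Ppargc1b, 0.0977 (0.00225 to 0.687), left 1. For FOXA1 over HNF4G, 3 of 16 were higher (background 13.5%) and 5 lower (22.0%) in tumor, and 3 of 14 higher (12.9%) and 1 lower (19.4%) in liver mets.

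Ligand-handling enzymes and well-known receptor targets were looped at 23 of 39 genes, beside 49.2% of protein-coding genes, with 328, 382, 268 and 264 loops. For FOXA1 in liver mets over tumor, 1 of 18 was higher (background 11.4%) and 0 lower (15.2%). For HNF4G, 1 of 14 was higher (background 12.7%) and 2 were lower (19.5%). The lower ones were Cyp26b1, an enzyme that clears retinoic acid, with 16, 14, 21 and 8 loops and a ratio of 0.372 (0.143 to 0.875), and Cyp26a1 with 0.628 (0.24 to 1.56). The higher one was Arntl, the clock activator BMAL1, with 27, 32, 12 and 23 loops and a ratio of 1.87 (0.895 to 4.13). For FOXA1 over HNF4G, 2 of 16 were higher (background 13.5%) and 3 lower (22.0%) in tumor, and 1 of 18 higher (12.9%) and 3 lower (19.4%) in liver mets.

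The labelled cell type was checked by loops at marker genes, since the Hi-ChIP samples hold no expression values. The study also ran RNA-seq on the KPC lines, which was not used here. Of all protein-coding genes, 49.2% had an anchor. Epithelial and ductal markers had anchors at 7 of 8 genes, with a median of 91 loops. Their summed loops were 199, 269, 177 and 144, and Cldn4 alone had none. Acinar markers had an anchor at 1 of 5 genes (Rbpjl, 3 to 11 loops), and Ptf1a, Cpa1, Cela1 and Amy2a2 had none. Fibroblast markers had 2 of 5 (Col1a1 and Pdgfra, 11 to 20 loops together), leukocyte markers 1 of 5 (Cd68, 7 to 9 loops) and hepatocyte markers 1 of 4 (Apoa1, 1 to 6 loops), with none at Ptprc, Alb or Ttr.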

How the data were processed

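Hi-ChIP for FOXA1 and HNF4G was available as 1 loop list per group, 4 in all, covering 2 replicates each. The submitters' processing notes name HiC-Pro 3.1.0 and the mm10 (GRCm38) assembly, and the study's methods add DpnII fragments, removal of duplicate reads with default settings and loop calling with hichipper. How replicates were joined, where the anchors came from and how many read pairs a loop needed were not given in the sources used here. Each loop had 2 anchors, a value and a display number. The deposited values are a score that the authors left unnamed. It reads like a −log10 of an adjusted p, with runs of ties and a ceiling of 20, but no source states this, and it was used only to rank loops and to filter at 2. The display number was not used. No columns of unmatched samples were found.

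Starts came from GENCODE M21 on GRCm38, and coordinates count from 1. The 30542 anchors never overlapped without being identical, so a loop was the same in another list when both anchors matched. Shares of lists were compared by ratios with exact 95% intervals (Clopper-Pearson, conditional on the summed count), shares had Wilson intervals and single counts exact Poisson intervals. A receptor was called past a fold of 1.5 on 10 or more summed loops, with the same rule over all protein-coding genes as background. Other promoter loops were counted once per promoter end where partners, sharing, median spans, shares of long loops and shares by value were compared. Receptor loops were counted once per loop there, except where anchor ends are named. Sequence was read from GRCm38 and promoters from RefSeq. The members, gene lists and named-gene rule were chosen with earlier results of these data known. Named were receptors with 20 or more loops, the loop with the highest lowest value for the top 10, and partners found in 1 of 2 lists for receptors past the fold. The loop so named for Pparg is not reported here. Scripts were tested on simulated data. Alternatives covered the distance to a start (0 and 5 kb), transcript choice, a value of 2 or more, a span of 20 kb or more, anchors widened by 5 kb, other folds and minimum counts, scaling, and leaving out Rara or, added after the data were seen, Thra, Nr1d1 and Rara together. Versions were Python 3.11.15, pandas 2.3.3, NumPy 2.4.6, SciPy 1.17.1 and Matplotlib 3.10.9.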

Additional observations from a re-analysis of the deposited data

Results flagged for a closer look

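At the Thra, Nr1d1 and Rara locus the liver mets over tumor ratio lay on opposite sides of 1 for the 2 factors, at 1.08 for FOXA1 and 0.643 for HNF4G. The same held for Rara loops of 500 kb or more, at 1.33 for FOXA1 and 0.421 for HNF4G. All loops of the lists at this length lay on the same sides of 1, at 1.16 for FOXA1 and 0.884 for HNF4G. With 1 list per group these differences between the factors were not tested. At the locus and at Rara only the HNF4G intervals left 1.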

How the results depend on the processing

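No paired analysis was possible because each group had 1 list that joined both replicates, and for the same reason no replicate could be left out. Of 68 alternatives to the comparisons and shares, 49 stayed within the interval of the value reported or, for counts of genes, within 1.5 times, 16 lay outside and 3 changed direction. Receptors with a looped anchor numbered 29 to 32 under 4 alternatives, but 21 of 42 (50.0%, 35.5 to 64.5) at a value of 2 or more, against 31. The share of coding genes was not counted at that value, so the 50.0% has no background and cannot be set beside the share over all loops. With loops of value 2 or more, liver mets over tumor was 0.788 for FOXA1 and 1.01 for HNF4G (against 0.869), and FOXA1 over HNF4G was 0.981 in tumor and 0.766 in liver mets. Without Thra, Nr1d1 and Rara, added after the data were seen, it was 1.02 for HNF4G and 0.8 for FOXA1 over HNF4G in liver mets. Without Rara alone the HNF4G ratio was 0.949 (0.813 to 1.11). In raw counts, which keep the unequal list lengths, FOXA1 liver mets over tumor was 1.19 and FOXA1 over HNF4G was 1.11 in tumor and 1.48 in liver mets. The share of loops in all 4 lists (8.16%) was 6.59% at a value of 2 or more, 6.41% at spans of 20 kb or more and 39.3% with anchors widened by 5 kb. The share with a promoter partner was 45.6% at 0 kb, 70.8% at 5 kb and 44.4% with protein-coding transcripts. The median span (316 kb) was 185 kb at a value of 2 or more and 251 kb without Thra, Nr1d1 and Rara. Receptors past the fold over the 4 comparisons (21) numbered 7 at a fold of 2 and 8 with 20 or more loops, fewer by construction. Of 34 loop numbers of named receptors, 7 lay outside 1.5 times: Rara had 253 loops at 0 kb (431 at 2 kb), Thra 60 (158) and Rxrb 78 (157), and at 5 kb Rxrb had 268, Nr2f6 81, Nr0b2 62 and Nr3c1 44. Where not stated, the cause was not tested. Depth was unknown, so an unlisted loop was not detected rather than shown to be absent.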
